A study of Mus musculus with 6 samples.

Results

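The nuclear genes for the subunits of mitochondrial oxidative phosphorylation, with the assembly factors that carry related names, were followed in RAW264.7 cells given RANKL with or without etelcalcetide. Members were all protein-coding genes outside the mitochondrial chromosome whose mouse GENCODE M21 symbol starts with Nduf, Uqcr, Cox4 to Cox8 or Atp5, or is Sdha, Sdhb, Sdhc or Sdhd. The rule gave 94 genes of the 55536 in the deposited tables. They comprised 36 subunits of complex I, 4 of complex II, 8 of complex III, 19 of complex IV, 17 of complex V and 10 assembly or other factors. Ndufa4 and Ndufa4l2 were placed in complex IV, and Ndufb1-ps, which M21 lists as noncoding, was outside the rule.

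RAW264.7, immortalized mouse macrophages, can form osteoclasts, which resorb bone, in response to RANKL, a cytokine of the tumour necrosis factor family. Every library had RANKL at 50 ng/mL; 3 of the 6 also had etelcalcetide at 4 µM, a peptide agonist of the calcium-sensing receptor. Cells without RANKL were not analysed here. By its sample label, replicate 1 of each group was kept for 5 days, replicate 2 for 6 and replicate 3 for 7, where the series design gives 5 days throughout. Nothing says that the replicates were independent cultures; p-values then measure only how these samples spread, and that spread may be technical.

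Oxidative phosphorylation takes electrons from NADH through complex I and from succinate through complex II, passes them by way of coenzyme Q to complex III and by cytochrome c to complex IV, where oxygen is reduced. Complexes I, III and IV pump protons across the inner mitochondrial membrane, and complex V, the ATP synthase, uses the proton gradient to make ATP. Complex II is encoded wholly in the nucleus, whereas the other complexes also hold subunits encoded by mitochondrial DNA, and osteoclasts are known for their many mitochondria.

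Depths were between 13742913 and 16264432 reads recovered from the deposited FPKM (fragments scaled by exon length and library total). Levels below are scaled FPKM, the deposited FPKM divided by a trimmed-mean-of-M-values factor of the library, and log2 fold changes are for RANKL plus etelcalcetide over RANKL on log2(scaled FPKM + 0.1). Of 7 tested macrophage markers, 3 rose and 0 fell, where 26.0% of all tested genes rose and 27.0% fell. Summed levels of the macrophage markers were 2602 to 2750 with RANKL alone and 2769 to 2861 with etelcalcetide. Most of these sums came from Lyz2, which did not pass, at means of 1796 with RANKL and 1780 with etelcalcetide. The means of the risers went from 24.1 to 68.1 (Adgre1), 12.5 to 21.3 (Itgam) and 5.93 to 14.0 (Fcgr1). Of 7 tested osteoclast markers, 5 fell and 0 rose, beside the same shares of all tested genes. Summed levels of the osteoclast markers were 356 to 498 with RANKL alone and 175 to 192 with etelcalcetide. Most of the treated sum came from Mmp9 (means of 163 with RANKL and 158 with etelcalcetide) and Dcstamp (21.3 and 21.1), which did not pass. Means went from 119 to 3.83 for Acp5, from 97.1 to 0.186 for Ctsk and from 32.7 to 0.379 for Atp6v0d2. Oscar and Calcr were at 0 in all 3 treated libraries. Ctsk, Atp6v0d2 and Oscar passed the filter on low genes only through the RANKL group, where they are high, and leaving out any RANKL library left 4 of these markers tested and 2 lower. None of the listed markers of lymphocytes, granulocytes, fibroblasts, epithelium, red cells or muscle was high enough to test. In bulk samples, fewer cells of a type and less RNA per cell cannot be told apart, and the part of the marker shifts in the changes below was not tested. RANKL replicate 3 stood apart: it gave the highest of the 3 RANKL values for 64 of the 86 tested members (74.4%), against 4256 of all 11120 tested genes (38.3%). Counts are therefore also given without it.

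Most members differed little between the groups. Of 94 members, 86 were high enough to test, and 23 of these (26.7%) changed, where 53.0% of all 11120 tested genes did (limma, Benjamini-Hochberg adjusted p under 0.05). Higher with etelcalcetide were 8 members, beside 26.0% of all tested genes, and lower were 15, beside 27.0%. The median log2 fold change of the members was -0.02, where that of all tested genes was -0.01, and the members' median absolute change was 0.10, where that of all genes was 0.28. The median SE of a member's fold change was 0.07, and that of all tested genes 0.09. The extremes were Ndufaf3 at 0.52 and Ndufs8 at -0.61, and Ndufs8 alone passed 1.5-fold, which 18.7% of all tested genes did. The 3 treated values lay all above the 3 RANKL values for 9 members, beside 30.7% of all tested genes, and all below for 22, beside 31.2%; in either direction 61.9% of all tested genes had groups that did not overlap. Among the 63 members that did not pass, the 95% interval of the change lay within 1.2-fold either way for 47 and within 1.5-fold for 61.

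The direction of the balance rested on the scaling and on RANKL replicate 3. With library totals alone, 14 members were higher and 8 lower, where 32.0% and 20.4% of all tested genes were. Without RANKL replicate 3, 16 were higher and 13 lower, where 28.0% and 27.4% of the genes tested in that fit were. Under every one of 13 alternatives 11 members passed: Ndufa3, Ndufa7 and Ndufv3 were higher, and Ndufs8, Ndufs1, Ndufb3, Sdha, Uqcrc2, Atp5f1, Ndufaf4 and Ndufaf5 were lower.

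**Figure D1:**
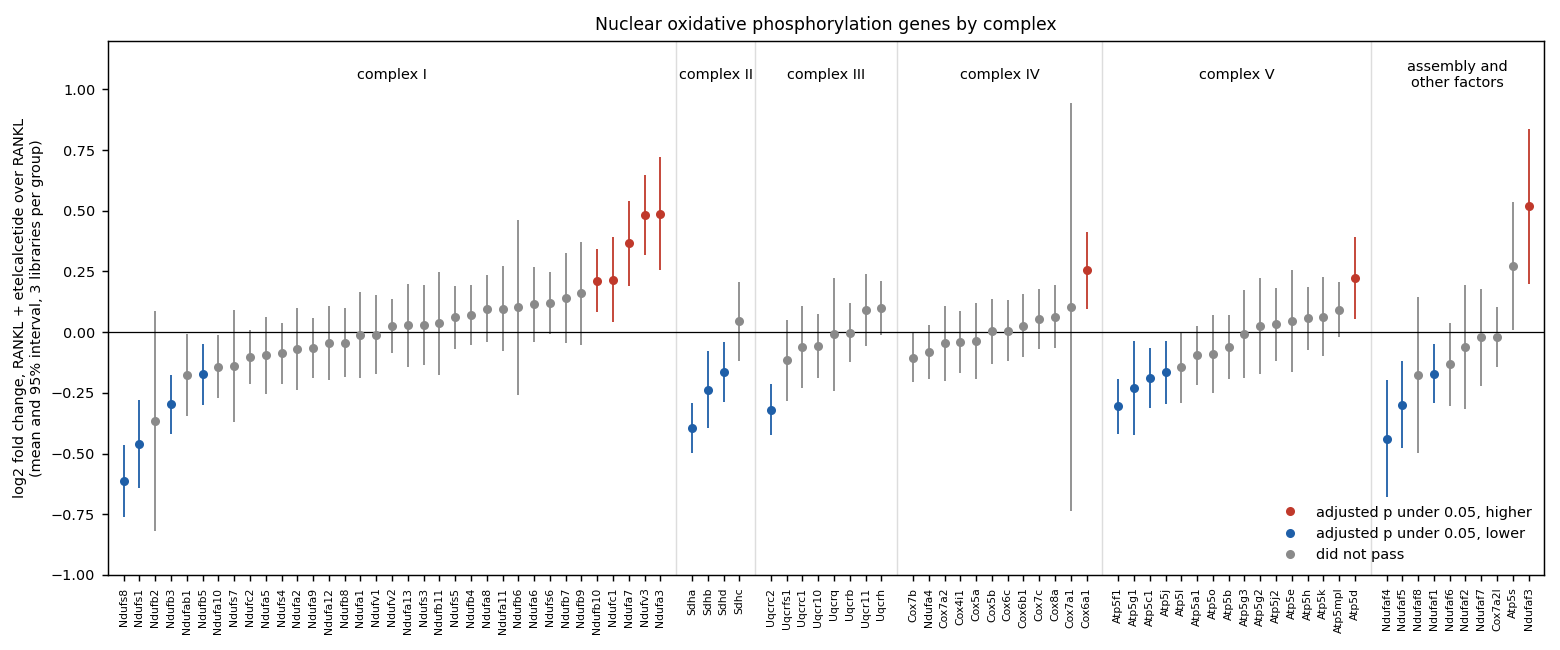
Log2 fold change (vertical axis, RANKL + etelcalcetide over RANKL, with its 95% interval, 3 libraries per group) of the tested members, 1 of them not drawn, grouped by complex; red marks members that passed the test as higher, blue as lower and grey those that did not pass. Most points lie close to 0, with Ndufs8 lowest at -0.61 and Ndufaf3 highest at 0.52.

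Levels in the RANKL libraries ranged widely among subunits that stand in fixed numbers in the assembled enzymes. The highest was Atp5a1, the alpha subunit of the catalytic head of ATP synthase, at 438 ± 20.2 scaled FPKM (mean ± SD, n = 3), followed by Atp5b, the beta subunit, at 374 ± 23.4. Next came 4 subunits between 245 and 282, namely Cox4i1 at 282 ± 16.3, Cox8a, Cox6b1 and the complex II anchor Sdhd at 245 ± 10.2, and neighbours among these 4 differed by less than the sum of their SDs. The lowest tested members were Ndufb2 at 0.701 ± 0.108 and Cox7a1 at 1.13, 1.95 and 1.71 in RANKL replicates 1 to 3. For Ndufb2, a subunit of the membrane arm, the annotation gives 5628 bases of exon, over which FPKM is spread. Its reads were also few, at 49, 62 and 64 in RANKL replicates 1 to 3. Ndufb5, with 4995 bases, had 1040, 1040 and 1003 in the same libraries. The cause of the low level was not tested.

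**Figure D2:**
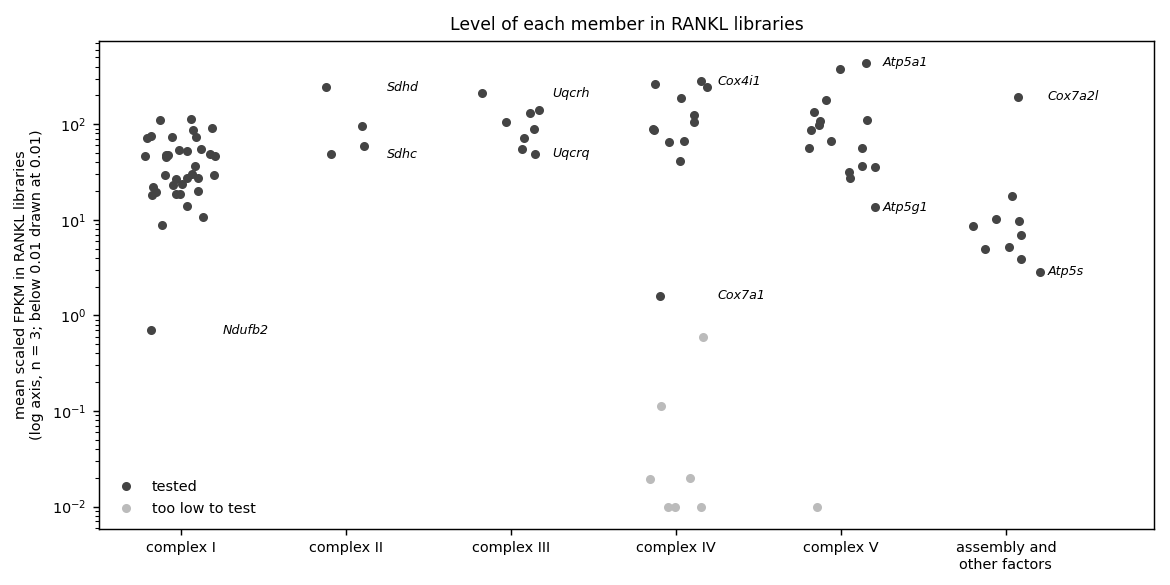
Mean scaled FPKM in the RANKL libraries (log axis, n = 3) of every member, grouped by complex, with some high and low members named; pale points were too low to test and values below 0.01 are drawn at 0.01. Atp5a1 is highest at 438, and the pale points, untested complex IV paralogs and a second Atp5o gene model of complex V, lie at the bottom.

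Promoter sequence was looked at because subunit genes of different complexes share regulators. RefSeq promoters (GRCm38.p6, 250 bases before to 50 after the start) were found for 74 of 93 member symbols, 79 windows in all. A word of nuclear respiratory factor 1 (NRF1), GCGCA and GCGC with any base between them, on either strand, stood in 25.3% of member windows and in 4.60% of all 32851. The ETS word CCGGAAG stood in 22.8% and 8.86%, the YY1 word AAGATGGC in 12.7% and 2.75%, the word TCAAGGTCA of estrogen-related receptors in 2.53% and 0.423%, and TATAAA in 10.1% and 13.6%. The NRF1 word was in 5 of 14 windows of members that fell, 1 of 10 of members that rose and 14 of 52 of members that did not pass, all small numbers. Shown 5′ to 3′ are the 150 bases before the RefSeq start of Sdha (chr13:74350241-74350390, minus strand) and Sdhd (chr9:50603850-50603999, minus strand), which both fell, of Cox6a1 (chr5:115348959-115349108, minus strand), which rose, and of the most lowered and a raised complex I gene, Ndufs8 (chr19:3912775-3912924, minus strand) and Ndufa3 (chr7:3617223-3617372, plus strand). Capitals mark the NRF1 and ETS words, which do not overlap here.
Sdha: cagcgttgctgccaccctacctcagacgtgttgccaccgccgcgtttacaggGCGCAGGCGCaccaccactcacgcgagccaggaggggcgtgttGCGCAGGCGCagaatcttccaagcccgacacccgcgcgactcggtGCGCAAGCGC
Sdhd: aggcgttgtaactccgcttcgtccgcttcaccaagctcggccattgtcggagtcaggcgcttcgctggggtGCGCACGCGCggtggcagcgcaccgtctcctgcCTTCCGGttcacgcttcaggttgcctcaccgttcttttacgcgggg
Cox6a1: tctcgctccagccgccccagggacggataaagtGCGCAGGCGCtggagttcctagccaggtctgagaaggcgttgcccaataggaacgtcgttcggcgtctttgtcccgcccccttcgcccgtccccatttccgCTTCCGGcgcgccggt
Ndufs8: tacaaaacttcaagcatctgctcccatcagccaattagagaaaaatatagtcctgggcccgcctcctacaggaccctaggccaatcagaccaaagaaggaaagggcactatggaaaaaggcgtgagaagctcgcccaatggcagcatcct
Ndufa3: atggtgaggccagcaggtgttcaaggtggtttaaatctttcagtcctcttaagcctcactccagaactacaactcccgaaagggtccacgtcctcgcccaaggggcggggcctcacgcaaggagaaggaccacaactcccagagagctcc
The Sdha stretch holds 3 NRF1 words, those of Sdhd and Cox6a1 hold an NRF1 and an ETS word each, and those of Ndufs8 and Ndufa3 hold neither. Outside the printed stretch, the counted window of Ndufs8 holds an ETS word and that of Cox6a1 another NRF1 word. A match is a description of letters and not a binding site.

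Complex I has a matrix arm, where NADH is oxidized (N module) and coenzyme Q reduced (Q module), and a membrane arm that pumps protons. All 36 of its nuclear subunits were tested; 5 were higher and 4 lower, with a median log2 fold change of 0.01. Of 8 N module subunits 1 rose and 1 fell, as was so for 8 Q module subunits; 2 of 9 in the proximal membrane arm rose and 0 fell, and in the distal membrane arm 1 of 11 rose and 2 fell. Of the 7 core subunits, which have bacterial counterparts and carry the flavin and iron-sulfur clusters or the quinone site, 0 rose and 2 fell. Of the 29 accessory subunits 5 rose and 2 fell. Changed were thus 28.6% of the core and 24.1% of the accessory subunits, where 53.0% of all tested genes changed. Of all tested genes 26.0% rose and 27.0% fell, and these shares also stand beside the counts of the other complexes below. The parts are small, and differences between them were not tested. Without RANKL replicate 3, 10 of the 36 were higher and 4 lower.

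Ndufs8 (ENSMUSG00000059734, chromosome 19, 3908863 to 3912774, minus strand) encodes a core Q module subunit that holds iron-sulfur clusters on the way to coenzyme Q. Its scaled FPKM was 81.2, 84.7 and 95.6 in RANKL replicates 1 to 3 and 55.8, 58.6 and 56.1 in etelcalcetide replicates 1 to 3. Every treated library was below every RANKL library. Ndufs8 fell by 34.7%, at -0.61 on the log2 scale (SE 0.07, limma adjusted p = 9.07e-05).

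Ndufs1 (chromosome 1, 63143596 to 63176833), the large iron-sulfur core subunit of the N module, measured 19.6, 18.2 and 16.2 with RANKL and 13.6, 12.3 and 13.2 with etelcalcetide. The groups did not overlap, and RANKL replicate 3 was here the lowest of its group. Ndufs1 fell by 27.3%, at -0.46 on the log2 scale (SE 0.08, limma adjusted p = 0.00132). It shares 6.16% of its exon length with Eef1b2 and Ino80dos.

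The other core subunits had overlapping groups and did not pass, among them Ndufs3 at 0.03 (95% interval -0.13 to 0.19), Ndufs7 at -0.14 (-0.37 to 0.09), Ndufv1 at -0.01 (-0.17 to 0.15) and Ndufv2 at 0.03 (-0.09 to 0.14). Ndufv1 and Ndufv2 form the NADH-oxidizing tip together with Ndufs1, and Ndufs3 and Ndufs7 lie with Ndufs8 in the Q module. The interval of Ndufs8 (-0.76 to -0.47) does not meet those of Ndufs3 and Ndufs7.

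Among accessory subunits, Ndufa3 (chromosome 7, 3617373 to 3620327), a small protein of the proximal membrane arm, went from 23.6, 25.9 and 31.5 in the RANKL libraries to 39.3, 39.1 and 34.7. Every treated value was above every RANKL value, with RANKL replicate 3 the nearest. Ndufa3 rose by 40.2%, at 0.49 on the log2 scale (SE 0.10, limma adjusted p = 0.00375).

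Ndufv3 (chromosome 17, 31520115 to 31531331), an accessory subunit of the N module, went from 17.1, 19.6 and 19.1 to 24.1, 27.3 and 26.6. The groups were well apart, and the change was 0.48 (SE 0.07, limma adjusted p = 0.000652). Ndufa7 (chromosome 17, 33824572 to 33838317), an accessory subunit of the Q module, went from 25.9, 25.5 and 30.3 to 33.2, 37.2 and 34.6, at 0.37 (SE 0.08, limma adjusted p = 0.00391), also without overlap. Ndufv3 is thus higher in the module in which Ndufs1 is lower, and Ndufa7 in the module in which Ndufs8 is lower.

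Ndufb10, of the distal membrane arm, rose by 15.9% and Ndufc1, of the proximal arm, by 16.2%, both without overlap of the groups. Ndufb10 lost its call without etelcalcetide replicate 1, and Ndufc1 when any library other than RANKL replicate 3 was left out. Ndufb3, a subunit of the distal arm, had 73.0, 70.3 and 75.1 with RANKL and 60.6, 61.1 and 56.0 with etelcalcetide. All 3 treated values were lower, a change of -0.30 (SE 0.05, limma adjusted p = 0.00171). Ndufb5, of the same arm, fell by 11.3%, with 12.3% of its exon length shared with Mrpl47, and did not pass with library totals alone or without 4 of the 6 libraries in turn. Ndufb2 was at -0.37 with a wide interval of -0.82 to 0.09 and did not pass.

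**Figure D3:**
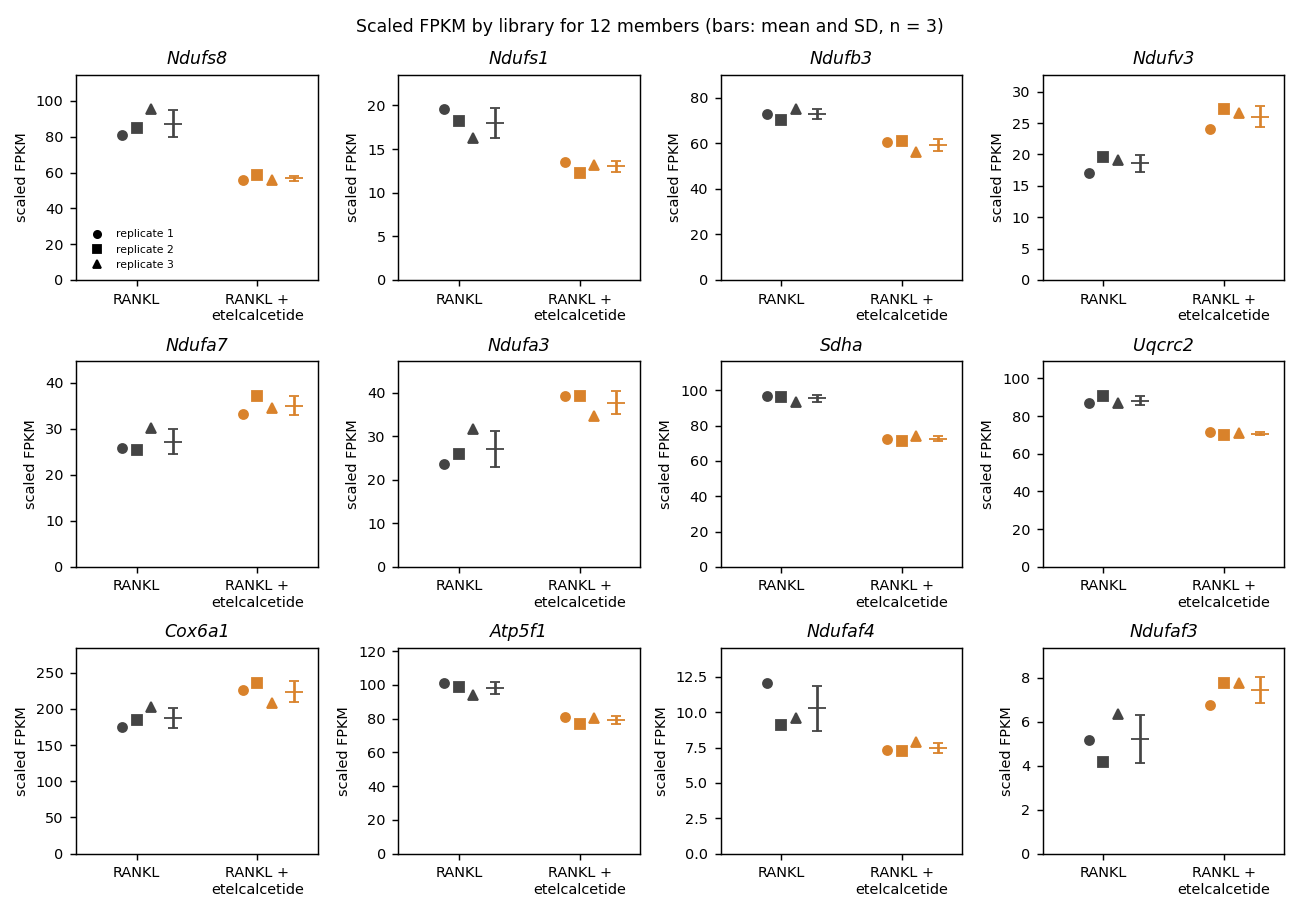
Scaled FPKM (vertical axes, from 0) of 12 members in each library; the marker shape gives the replicate number, dark is RANKL, orange is RANKL + etelcalcetide, and bars give the mean and SD (n = 3). For each of the 12 the treated values lie all on one side of the RANKL values, with the gap smallest relative to the spread for Ndufaf3 and Cox6a1.

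Complex II is succinate dehydrogenase, which also works in the citric acid cycle. Of its 4 subunits 3 fell and 0 rose, with a median of -0.20. Sdha (chromosome 13, 74322254 to 74350280), the flavoprotein that oxidizes succinate, had 97.0, 96.2 and 93.4 scaled FPKM with RANKL and 72.4, 71.2 and 74.2 with etelcalcetide. The groups were far apart relative to their spread. Sdha fell by 24.0%, at -0.40 on the log2 scale (SE 0.05, limma adjusted p = 0.000139).

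Sdhb (chromosome 4, 140961203 to 140979193), the iron-sulfur subunit, went from 54.0, 58.8 and 64.6 to 48.3, 52.2 and 49.7, at -0.24 (SE 0.07, limma adjusted p = 0.0186). Sdhd (chromosome 9, 50596357 to 50603812), a membrane anchor, went from 235, 244 and 255 to 220, 209 and 226, at -0.17 (SE 0.05, limma adjusted p = 0.0304). In both genes the treated values were all below the RANKL values by a small gap. With library totals alone Sdhb was at -0.16 (limma adjusted p = 0.0867) and Sdhd at -0.09 (limma adjusted p = 0.254), and Sdha was then the 1 subunit that passed. Without RANKL replicate 3, 2 subunits passed, and Sdhd was at -0.13 (limma adjusted p = 0.0617). Sdhb also lost its call without a filter on low genes, and without etelcalcetide replicate 1 or 3. Sdhd also lost its call without that filter, and without RANKL replicate 2 or etelcalcetide replicate 1 or 2. Sdhc, the other anchor, had 44.9, 46.6 and 53.6 with RANKL and 48.4, 52.2 and 48.8 with etelcalcetide, with overlap, and its change was 0.05 (95% interval -0.12 to 0.21).

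Complex III, which passes electrons from reduced coenzyme Q to cytochrome c, had 1 of 8 subunits lower and 0 higher, with a median of -0.03. Uqcrc2 (chromosome 7, 120635176 to 120659524), a core protein of the matrix side, went from 86.8, 90.9 and 87.1 to 71.4, 69.8 and 71.0. The groups did not overlap and each was tight. Uqcrc2 fell by 19.8%, at -0.32 on the log2 scale (SE 0.05, limma adjusted p = 0.000474), and shares 19.7% of its exon length with Pdzd9. Its partner core protein Uqcrc1 had overlapping groups at -0.06 (95% interval -0.23 to 0.11), as had Uqcrfs1, the Rieske iron-sulfur protein, at -0.12 (-0.28 to 0.05). At the other end were Uqcrh, a hinge protein near cytochrome c, at 0.10, and Uqcr11 at 0.09; neither passed, while Uqcr11 passed without RANKL replicate 3 at 0.15 (limma adjusted p = 0.0405) and Uqcrh with library totals alone at 0.18 (limma adjusted p = 0.0160).

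Complex IV, cytochrome c oxidase, had 12 of 19 members high enough to test, of which 1 rose and 0 fell; the median was 0.00. Cox6a1 (chromosome 5, 115345642 to 115348981), the broadly expressed form of a regulatory subunit, went from 175, 185 and 203 to 226, 236 and 208. Etelcalcetide replicate 3 was just above RANKL replicate 3, and the other treated libraries were clearly higher. Cox6a1 rose by 19.2%, at 0.25 on the log2 scale (SE 0.07, limma adjusted p = 0.0141), while the limma adjusted p was 0.0606 without etelcalcetide replicate 2 and 0.0514 without a filter on low genes. Cox4i1 and Cox5a, which join the mitochondrially encoded core early, did not pass, at -0.04 (95% interval -0.17 to 0.09) and -0.04 (-0.19 to 0.12). Nor did Cox5b, at 0.00 (-0.13 to 0.14). Cox7b at -0.10, Ndufa4 at -0.08, Cox7a2 at -0.05, Cox8a at 0.06 and Cox7a1 at 0.10 did not pass either.

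Where complex IV has paralogs, 1 form carried nearly all of the family's scaled FPKM in both groups. Cox4i1 made up 99.96% with RANKL and 99.97% with etelcalcetide of the sum with Cox4i2, a form of lung and hypoxic cells. Cox6a1 made up 99.7% and 99.9% of the sum with the muscle form Cox6a2, and Cox7a2 98.5% and 98.2% of the sum with the muscle form Cox7a1. The 7 members of this complex that were too low to test had few reads over the 3 libraries of a group. Cox6a2, which shares 10.3% of its exon length with Itgad, had 18 reads with RANKL and 4 with etelcalcetide. Cox6b2 had 1 and 9, Cox4i2 had 4 and 3, and Ndufa4l2 had 1 and 1. Cox7b2, Cox8b and Cox8c had 0 reads in all 6 libraries, and a floor of 3 reads on 1 kb of exon corresponds to 0.184 to 0.218 FPKM before scaling, for counting error only.

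Complex V had 16 of 17 members tested, 1 higher and 4 lower, with a median of -0.04. The untested one is a second Atp5o gene model that overlaps exons of Atp5o and Donson, has 0 reads, and shares 100% of its exons with other genes. Atp5f1 (chromosome 3, 105942698 to 105960099), the b subunit of the peripheral stalk that holds the head still, went from 101, 98.9 and 94.1 to 81.1, 76.6 and 80.4. All treated values were lower. Atp5f1 fell by 19.1%, at -0.31 (SE 0.05, limma adjusted p = 0.00104). It shares 8.21% of its exon length with Gm42890 and Wdr77.

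The other 4 calls in complex V were smaller and each was lost under some alternatives. Atp5c1, the gamma subunit of the rotor stalk, had 167, 186 and 184 with RANKL and 156, 159 and 155 with etelcalcetide, at -0.19 (limma adjusted p = 0.0173) and without overlap. Atp5j, a peripheral stalk subunit, was at -0.17 (limma adjusted p = 0.0350) and shares 12.7% of its exon length with Gabpa. Atp5d, the delta subunit of the rotor stalk, was higher, at 81.3, 84.1 and 96.3 against 103, 107 and 94.7, with etelcalcetide replicate 3 below RANKL replicate 3. Its change was 0.22 (SE 0.07, limma adjusted p = 0.0321). The rotor stalk thus held a subunit that rose and a subunit that fell, while Atp5e, the epsilon subunit, was at 0.05 (95% interval -0.16 to 0.26). The catalytic subunits Atp5a1 at -0.10 (-0.22 to 0.02) and Atp5b at -0.06 (-0.19 to 0.07) did not pass. Atp5mpl at 0.09 and Atp5k at 0.06, small membrane subunits, did not pass.

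The ring of c subunits that turns in the membrane can be made from 3 paralogs whose mature proteins are the same. Atp5g3 gave 51.9% of their summed scaled FPKM with RANKL and 51.8% with etelcalcetide, Atp5g2 gave 42.9% and 43.7%, and Atp5g1 gave 5.23% and 4.47%. Atp5g1 was at 12.8, 12.3 and 15.2 with RANKL and 11.9, 11.1 and 11.2 with etelcalcetide, all treated values lower, at -0.23 (SE 0.09, limma adjusted p = 0.0468). That call was lost in 7 of 13 alternatives, among them leaving out RANKL replicate 3 (limma adjusted p = 0.102). Atp5g2 at 0.02 (95% interval -0.17 to 0.22) and Atp5g3 at -0.01 (-0.19 to 0.17) did not pass. Reads were counted by the authors, and their handling of reads that fit several such close copies is not stated in the labels.

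Assembly factors help to build the enzymes and leave, or stay outside the finished complex. Of the 10 members of this kind 1 rose and 3 fell, with a median of -0.10, and in the RANKL libraries 9 of them lay between 2.87 scaled FPKM (Atp5s) and 17.7 (Ndufaf1). The exception was Cox7a2l, a factor of respiratory supercomplexes, at 193 ± 8.73 scaled FPKM with RANKL and 191 ± 6.81 with etelcalcetide. Ndufaf3 (chromosome 9, 108565537 to 108567434) and Ndufaf4 (chromosome 4, 24898083 to 24905001) work as a pair in building the Q module. Ndufaf3 went from 5.15, 4.16 and 6.36 to 6.75, 7.75 and 7.79, at 0.52 (SE 0.14, limma adjusted p = 0.0134). Without a filter on low genes its limma adjusted p was 0.052. Ndufaf4 went from 12.1, 9.10 and 9.61 to 7.33, 7.25 and 7.90, at -0.44 (SE 0.11, limma adjusted p = 0.00757). Neither gene had overlapping groups, and the mean of Ndufaf4 was above that of Ndufaf3 with RANKL and close to it with etelcalcetide.

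Ndufaf5, which hydroxylates an arginine of Ndufs7, went from 8.43, 7.90 and 9.24 to 7.10, 6.94 and 6.65, at -0.30 (SE 0.08, limma adjusted p = 0.0113), without overlap. Ndufaf8, its binding partner, was at -0.18 (95% interval -0.50 to 0.14) with overlapping groups. Ndufaf1, a factor of the membrane arm, fell by 11.2% from 17.5, 17.5 and 18.0 to 16.0, 15.3 and 15.8, but with library totals alone it was at -0.09 (limma adjusted p = 0.205). Ndufaf1 also lost its call with a replicate block, and without RANKL replicate 2, etelcalcetide replicate 2 or etelcalcetide replicate 3. Ndufaf2 at -0.06, Ndufaf6 at -0.13 and Ndufaf7, a methyltransferase, at -0.02 did not pass. Ndufaf2 shares 65.6% of its exon length with B230220B15Rik. Atp5s, a factor of ATP synthase, was at 0.27 and passed with library totals alone and without RANKL replicate 3.

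A list of 45 further assembly factors without the naming pattern was read beside these. Of 42 tested, 4 rose, 8 fell and 30 did not pass. Changed were thus 28.6%, where 53.0% of all tested genes changed, 26.0% higher and 27.0% lower. With library totals alone 8 rose and 6 fell. The risers were Dmac1 (0.38, complex I), Sdhaf1 (0.42, complex II), Cmc2 (0.18) and the copper-handling factor Cox19 (0.53), both of complex IV. Among those that fell were Tmem186 (-0.47) and Tmem126b (-0.41), which work with Ndufaf1 on the membrane arm, Tmem70 (-0.44), a factor of the c ring, and Cox10 (-0.34), which makes a heme precursor of complex IV. Sdhaf2, which attaches the flavin to Sdha, was at 0.02 and did not pass.

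Subunits encoded by mitochondrial DNA, which assemble with the members, had 4 of 13 genes lower and 0 higher, with a median of -0.41. The share that was lower, 30.8%, lay near the 27.0% of all tested genes that were lower. The 4 were mt-Nd1, mt-Nd4, mt-Nd5 and mt-Nd6, all of complex I, between -0.47 and -0.41. The summed scaled FPKM of the 13 was 32225, 30868 and 24523 in RANKL replicates 1 to 3, and 24783, 21891 and 22757 in etelcalcetide replicates 1 to 3. RANKL replicate 3, the library in which most members were highest in their group, thus lay near the treated libraries here, below etelcalcetide replicate 1. Without it, 8 of 12 tested mitochondrial genes were lower, where 27.4% of all genes tested in that fit were. In the fit without a filter on low genes, by contrast, 0 of the 13 passed in limma and 3 had an unadjusted p under 0.05. Levels of the 13 are very uneven, from 11606 for mt-Co1 to 1.16 for mt-Nd3 in RANKL replicate 1, and mt-Co3 was at 375 in RANKL replicate 2 but at 8.97 to 20.8 in the other 5 libraries.

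**Figure D4:**
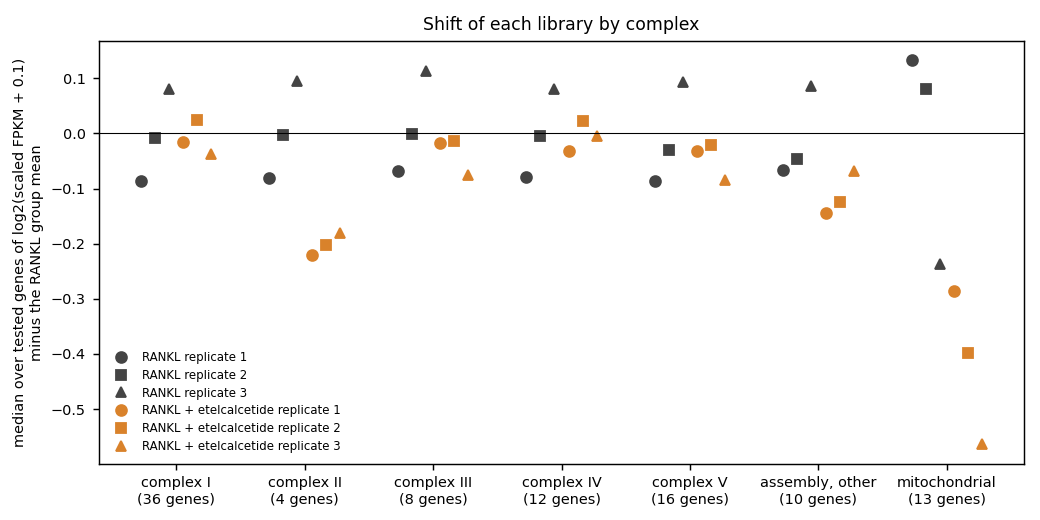
Shift of each library by complex: the median over tested genes of log2(scaled FPKM + 0.1) minus the mean of the RANKL libraries (vertical axis), with dark points for RANKL and orange for RANKL + etelcalcetide and the replicate number given by shape. In the 5 nuclear complexes and the assembly factors RANKL replicate 3 is the highest RANKL library, 0.08 to 0.11 above the mean of the 3, and in the mitochondrially encoded genes it is the lowest, at -0.24.

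Direction differed with exon length. Of 21 tested members with over 3000 bases of merged exon, 7 fell (33.3%) and 1 rose (4.76%), with a median of -0.14. Of all tested genes of that length 29.5% fell, a share near that of the members, and 25.8% rose, with a median of -0.04. Of 65 shorter members 7 rose (10.8%) and 8 fell (12.3%), where 26.6% and 21.8% of all tested genes of that length did. Spearman's rho between log2 fold change and merged exon length was -0.36 across the 86 members and -0.11 across all 11120 genes; genes are not independent replicates, they share the 6 libraries, and this is a description. Members are short genes, with a median merged exon length of 1560 bases, where that of all tested genes was 4180. Exon sequence shared with another annotated gene was found for 33 members, and for 13 of them it covered at least 10% of the exon length. Whether the libraries were stranded is not stated in the labels, and reads from the shared stretches cannot be told apart.

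**Figure D5:**
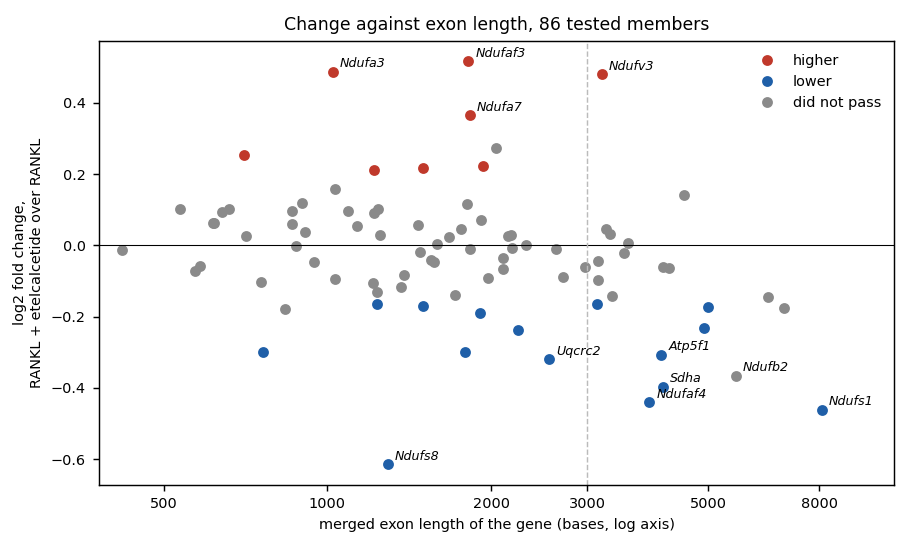
Log2 fold change (vertical axis, RANKL + etelcalcetide over RANKL) of the 86 tested members against merged exon length (bases, log axis), with red for higher, blue for lower and grey for members that did not pass; the dashed line is at 3000 bases. Right of the line 7 members are lower and 1, Ndufv3, is higher.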

How the data were processed

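RNA of RAW264.7 cells was sequenced in 6 libraries, 3 per group, grouped by their titles. The authors deposited 1 FPKM value per gene and library. The submitters' processing notes list featureCounts 1.6.0, HISAT2 2.1.0, Trimmomatic 0.38 and DESeq2 1.22.1, along with MultiQC, FastQC and CASAVA, without their order. They name the build GRCh38, but all 55536 gene IDs are those of mouse GENCODE M21, which was used for coordinates (GRCm38, 1-based) and exon lengths. FPKM times merged exon length gave whole reads for 100% of values (within 0.01 reads); these reads served for the filter and the scaling factors.

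Scaled values plus 0.1 were fitted on the log2 scale with limma 3.58.1 (R 4.3.3), with group as the only term, for the 11120 genes with at least 0.5 FPKM and 10 reads in at least 3 libraries. Adjusted p-values are Benjamini-Hochberg over all 11120 genes. Since the deposited unit is FPKM, the test was made on the log scale, and the recovered reads were not fitted with a count model. The added 0.1 understates changes of low genes. On simulated reads for 11067 tested genes the filter and fit, without the scaling step, recovered 45% of 1.25-fold and 95% of 1.5-fold changes. Of the calls, 4.76% were false. Only 100 genes were changed at each fold, where 53.0% of the real genes were called. The noise between simulated libraries was an assumed fixed value, so these rates need not hold for the real libraries.

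The members and lists were chosen with earlier results of these data known. Named genes were the catalytic core, the paralogs, the Ndufaf factors, and the 3 highest and 3 lowest changes of each complex; other members named here, and those of the other lists, were chosen after their values were seen. Values of 1 member are left out of the text. Alternatives were library totals alone, upper-quartile factors, pseudocounts of 1 and 0.01, no filter, a filter of 1 FPKM and 30 reads, a replicate block, and leaving out each library.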

Additional observations from a re-analysis of the deposited data

How the results depend on the processing

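No member changed sign while called under any of the 13 alternatives. Upper-quartile factors, pseudocounts of 1 and 0.01 FPKM, and the filter of 1 FPKM and 30 reads each left 8 members higher and 15 lower. Library totals alone gave 14 higher and 8 lower, with 1 change in complex II, 2 in complex III and 3 in complex V; by construction this moves every fold change up, and the median of all genes from -0.01 to 0.07. Without a filter 4 members were higher, with 1 change in complex II and 2 in complex V, and 24.1% of 22193 genes changed. In complex IV, Cox6a1 lost its call and Cox6a2, otherwise too low to test, was lower (limma adjusted p = 0.0400). The fit then holds many genes near 0, and the cause was not tested.

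Leaving out each library in turn gave 14 to 29 changed members, 5 to 16 higher and 9 to 16 lower, beside 42.9% to 55.5% of all genes tested in the same fits, the most also without RANKL replicate 3. The changes were 6 to 14 in complex I, 1 to 3 in complex II, 1 to 2 in complex III, 0 to 1 in complex IV and 1 to 5 in complex V. The highest totals, in complex I, complex III and among all members, came without RANKL replicate 3. Without etelcalcetide replicate 1, 14 members changed, 1 of them in complex II and 1 in complex V. Without etelcalcetide replicate 2, 15 changed, and none in complex IV. Without etelcalcetide replicate 3, or without RANKL replicate 2, complex V had 2 changes, and 3 without RANKL replicate 1. The cause was not tested, and fewer samples enter each such fit.

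Replicate numbers are shared between the groups, but same-numbered libraries did not deviate together (correlations 0.07, -0.02 and -0.03). With a replicate block 21 members changed, 8 higher and 13 lower, and 5709 genes in all; Ndufb5 and Ndufaf1 were then at adjusted p of 0.0587 and 0.0527 in limma.

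With 3 libraries per group, small changes are often missed, so members that did not pass are described by their intervals.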

Other observations

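Carriers that link the complexes, and makers of coenzyme Q, had a median absolute log2 fold change of 0.22. That of the 76 tested subunits was 0.09 and that of all tested genes 0.28, and these differences were not tested. The median SE was 0.11 for the carriers and 0.07 for the subunits. Of 19 tested genes on a list of 20, 2 rose, 6 fell and 11 did not pass, with a median log2 fold change of -0.14. Changed were thus 42.1%, where 53.0% of all tested genes changed, 26.0% higher and 27.0% lower. The counts were the same with library totals alone, and 4 rose and 6 fell without RANKL replicate 3. Coq8a, an atypical kinase needed for coenzyme Q synthesis, went from 3.70, 4.89 and 4.47 scaled FPKM with RANKL to 1.57, 1.59 and 2.65 with etelcalcetide, at -1.16 (SE 0.20, limma adjusted p = 0.00124). Coq7, a hydroxylase of the same pathway, went from 3.10, 3.71 and 3.58 to 2.34, 2.13 and 1.93, at -0.67 (SE 0.12, limma adjusted p = 0.00139). In both genes every treated value was below every RANKL value.

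Cycs, cytochrome c, fell from 56.9, 59.8 and 59.0 to 47.9, 43.8 and 44.5, at -0.37 (SE 0.05, limma adjusted p = 0.000498). The electron transfer flavoprotein, which feeds electrons from fatty acid oxidation to coenzyme Q, had its subunits on opposite sides: Etfa was lower at -0.29 and Etfb, at a much lower level, higher at 0.51. Coq2 was higher at 0.29, and Pdss1 and Coq5 were lower at -0.48 and -0.25. Cyct, the testis form of cytochrome c, had 0 reads in all 6 libraries.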
